A study of Mus musculus with 12 samples.

Results

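The expression of 35 skeletal muscle genes was followed across 12 mouse melanoma tumours, 3 from each of 4 passages. The genes were taken as a list of muscle symbols, and the list was chosen with earlier results of these data known. Of the 35, 34 were found among the 34436 gene rows of the table used here. Tnnc2, fast troponin C, was not analysed here. All tumours descend from YUMM1.7, an established mouse melanoma line from a C57BL/6 background that carries mutant Braf and lacks Cdkn2a, lesions that all groups thus share. F0 tumours grew from cells of the line placed in syngeneic mice. Collected tumours were dissociated and their cells carried into later hosts, and N2.1, Balb/c-2 and CBA are later passages in that order. The labels give no age, sex, injection site or drug for any host, and for N2.1 no host strain. Balb/c-2 and CBA bear the names of mouse strains other than C57BL/6. In comparisons with these groups, passage and host strain therefore cannot be told apart. Per the labels, the letters A, B and C mark separate tumours within a passage, so the spread reported here is between tumours of 1 passage and not between repeated passage series.

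Whole tumour biopsies were used for polyadenylated RNA sequencing, so RNA of tumour cells and of host tissue was measured together. Reads recovered from the deposited values, over genes and repeats, summed to between 34721735 and 59404254 per tumour. Values are normalised read counts, of which 1 read equals 0.8266 to 1.2451. Per the library names, all F0 and N2.1 tumours together with Balb/c-2 A (7 in all) shared 1 flow cell and the other 5 tumours another, so CBA against F0 or N2.1 cannot be told apart from the flow cell. Of 7 melanocyte markers, Mitf was between 318 and 1290 and Pmel between 12.5 and 59.6. Sox10 ranged from 0.954 to 178, while Tyr, Dct and Mlana did not exceed 7.44 in any tumour.

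Skeletal muscle fibres contract when myosin thick filaments pull on actin thin filaments within sarcomeres, which are anchored at Z discs. Calcium released from the sarcoplasmic reticulum through the ryanodine receptor binds troponin and frees actin for myosin, and creatine kinase, glycogen phosphorylase and glycolysis supply the ATP. These genes are switched on together during muscle differentiation by MyoD family factors, which bind E-boxes, by MEF2 factors, and by serum response factor at CArG boxes. In a bulk biopsy, a smaller number of muscle cells and less muscle RNA per cell cannot be told apart, nor can muscle RNA of the host and of tumour cells.

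The promoters of 6 members are shown, because Acta1, Mylpf, Myh4 and Ckm varied together across tumours while Tpm2 and Eno3 did not. They are the 200 bases before the start in RefSeq (GRCm38.p6), 5′ to 3′ on the gene's strand, with E-boxes, TATA boxes, CArG boxes and MEF2 sites in capitals. For the TATA box only the letters TATAAA were searched. Acta1, skeletal actin, lies at chr8:123894776-123894975 on the minus strand. Mylpf, a fast myosin light chain, lies at chr7:127211408-127211607 on the plus strand. Myh4, the type IIb myosin heavy chain, lies at chr11:67237612-67237811 on the plus strand, and Ckm, the muscle creatine kinase, at chr7:19410894-19411093 on the plus strand. Tpm2, beta-tropomyosin, lies at chr4:43523555-43523754 on the minus strand, and Eno3, the muscle enolase, at chr11:70656976-70657175 on the plus strand.
Acta1: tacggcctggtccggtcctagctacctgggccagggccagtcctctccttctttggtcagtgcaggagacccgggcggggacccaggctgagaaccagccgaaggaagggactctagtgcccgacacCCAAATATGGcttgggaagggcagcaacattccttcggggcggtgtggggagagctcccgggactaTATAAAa
Mylpf: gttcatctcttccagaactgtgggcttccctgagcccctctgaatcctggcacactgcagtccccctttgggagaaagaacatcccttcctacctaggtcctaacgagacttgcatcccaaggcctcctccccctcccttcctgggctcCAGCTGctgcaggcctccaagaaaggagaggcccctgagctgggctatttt
Myh4: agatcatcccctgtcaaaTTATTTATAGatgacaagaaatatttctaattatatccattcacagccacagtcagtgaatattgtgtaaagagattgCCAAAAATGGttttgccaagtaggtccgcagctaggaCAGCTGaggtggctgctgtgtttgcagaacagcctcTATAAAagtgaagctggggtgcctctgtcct
Ckm: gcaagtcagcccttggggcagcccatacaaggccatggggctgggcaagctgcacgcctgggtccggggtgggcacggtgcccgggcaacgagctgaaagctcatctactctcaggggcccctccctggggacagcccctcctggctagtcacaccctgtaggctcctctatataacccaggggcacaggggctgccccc
Tpm2: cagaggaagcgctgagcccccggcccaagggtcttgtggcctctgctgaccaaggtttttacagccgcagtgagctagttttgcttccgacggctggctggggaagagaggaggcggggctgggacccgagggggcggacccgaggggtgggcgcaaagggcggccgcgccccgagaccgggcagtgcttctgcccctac
Eno3: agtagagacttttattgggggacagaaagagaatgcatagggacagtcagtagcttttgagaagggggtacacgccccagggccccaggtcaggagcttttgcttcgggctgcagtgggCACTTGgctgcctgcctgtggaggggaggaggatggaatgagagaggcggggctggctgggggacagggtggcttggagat
Acta1 carried a CArG box and a TATA box, Mylpf an E-box, and Myh4 all 4 kinds, with the MEF2 site overlapping a TATA box read on the other strand. Eno3 carried an E-box, and none of the letters searched occurred in the Ckm and Tpm2 windows. The Ckm window holds tatataa near its end, a TATA-like stretch that the search for TATAAA did not count. Both the genes that varied together and those that did not thus included windows with and without the exact letters searched.

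RefSeq promoters were matched for 27 of the 35 genes, and motifs were searched on both strands of the same 200 bases in these and in 27025 promoters in all. The E-box CANNTG was present in 66.7% of the member promoters and 57.9% of all. Its form CAGCTG was present in 10 of 27 (37%) against 10.6% of all, in Atp2a1, Cacna1s, Casq1, Ckmt2, Des, Mybpc1, Myh4, Mylpf, Pygm and Trim63. The CArG box was present in 11.1% against 1.14% (Acta1, Ldb3 and Myh4), the MEF2 site in 14.8% against 2.35%, and TATAAA in 18.5% against 10.6%. These are letter matches within a short window and were not tested.

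Muscle gene levels differed widely between tumours of the same passage. Their median normalised count, over the 33 genes at 10 or more in at least 3 tumours, was 91.0 in F0 A, 12.4 in F0 B and 176 in F0 C. Values for the lettered tumours are given in the order A, B, C from here on. The median was 195, 8.15 and 4.52 in N2.1, 140, 380 and 41.2 in Balb/c-2, and 2.71, 4.74 and 6.23 in CBA. High and low tumours therefore occurred within F0 and within N2.1, the Balb/c-2 tumours were all above the CBA tumours, and Balb/c-2 B held the highest value of 19 of the 34 genes. Of the 34 genes, 9, 14 and 12 had no read in the CBA tumours, and 8 had none in N2.1 B and in N2.1 C. In F0 A, N2.1 A, Balb/c-2 A and Balb/c-2 B every member had at least 1 read. The only gene below the filter was Myh7, the slow type I myosin heavy chain, which reached 10 in N2.1 A (15.1) and Balb/c-2 A (10.7) alone.

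**Figure D1:**
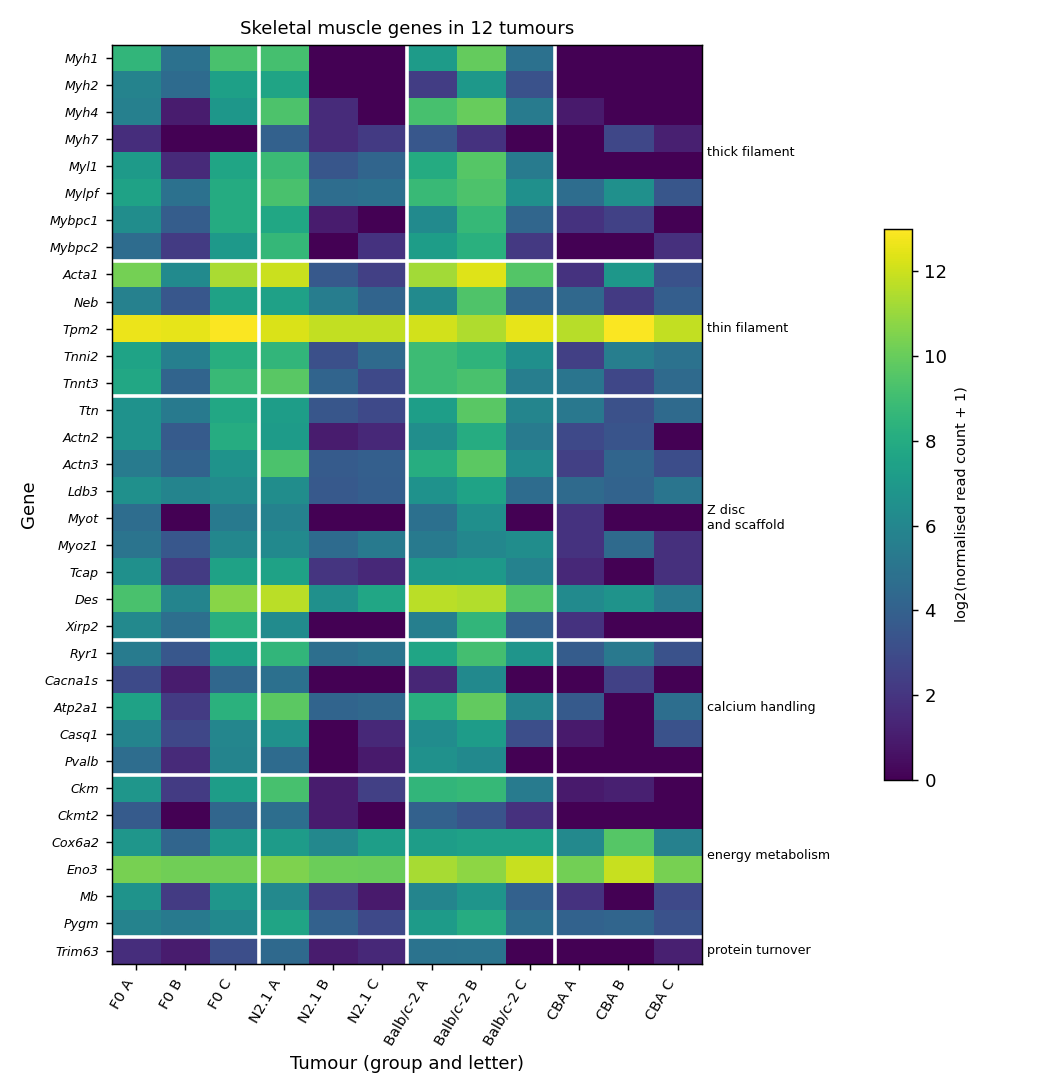
Heat map of log2(normalised read count + 1) for the 34 skeletal muscle genes in the table (rows, grouped by role) in 12 tumours (columns, grouped by passage). Most rows are bright in F0 A and C, N2.1 A and Balb/c-2 A and B and dark in N2.1 B and C and in CBA, while Tpm2 and Eno3 are bright in every tumour.

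Most thick filament genes showed the pattern, while Myh7, below the filter, did not. Myh1, the type IIx myosin heavy chain (ENSMUSG00000056328, mm10 chromosome 11, 67200052 to 67224575), was at 370, 27.7 and 610 in F0 and at 573, 0 and 0 in N2.1. It was at 138, 965 and 27.4 in Balb/c-2 and had no read in any CBA tumour. All Balb/c-2 and F0 tumours thus lay above all CBA tumours, and N2.1 held 1 high tumour and 2 without a read. Over the group, Myh1 was at least 339-fold lower in CBA than in Balb/c-2 and at least 302-fold lower than in F0, against a floor of 3 reads over the 3 CBA tumours. Such bounds, and the read share intervals given for the myosins, cover counting error only.

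Myl1, the fast essential light chain (ENSMUSG00000061816, chromosome 1, 66924295 to 66945404), was at 134, 1.91 and 200 in F0 and 471, 10.2 and 18.1 in N2.1. It was at 256, 767 and 41.2 in Balb/c-2, and CBA had no read. CBA lay below every other tumour, and the group was at least 101-fold lower than F0, 150-fold lower than N2.1 and 319-fold lower than Balb/c-2. Mylpf was at 176, 27.7 and 251 in F0, 615, 24.4 and 27.1 in N2.1, and 449, 659 and 90.9 in Balb/c-2. In CBA it was still read, at 24.4, 90.1 and 9.96. The myosin binding proteins Mybpc1 (slow) and Mybpc2 (fast), which stiffen and regulate the filament, ranged from 0 to 412 and from 0 to 397.

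Among thin filament genes, Acta1 (ENSMUSG00000031972, chromosome 8, 123891769 to 123894751) was at 1242, 73.5 and 2614 in F0 and at 4024, 11.2 and 4.52 in N2.1. It was at 2324, 5216 and 732 in Balb/c-2, and at 2.71, 116 and 8.72 in CBA. Its residual SD within groups, 3.28 on the log2 scale, was the highest of the 33 genes. Nebulin (Neb), which sets thin filament length, ranged from 3.56 to 689, and the fast troponins Tnni2 and Tnnt3, the calcium switch, from 4.51 to 483 and from 5.93 to 825. Tpm2 (ENSMUSG00000028464, chromosome 4, 43514711 to 43523765), which lies along actin and is also made in smooth muscle and fibroblasts, had the highest mean in this role. Its values were 6249, 5761 and 7757 in F0, 4974, 3639 and 3644 in N2.1, 4455, 2816 and 5803 in Balb/c-2 and 3138, 7832 and 3622 in CBA. No tumour was low for Tpm2, and Balb/c-2 B, highest for most members, was its lowest.

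Of the Z disc and scaffold genes, desmin (Des, ENSMUSG00000026208, chromosome 1, 75360329 to 75368579), the intermediate filament that links neighbouring Z discs, had the highest mean. It was at 609, 58.2 and 1653 in F0, 3266, 92.7 and 205 in N2.1, 3251, 2890 and 702 in Balb/c-2, and 74.0, 103 and 39.8 in CBA. Desmin is also made in smooth muscle and pericytes, and no tumour was without it. Titin (Ttn), the molecular spring of the sarcomere, ranged from 6.32 to 802. The Z disc actinins Actn2 and Actn3 ranged from 0 to 264 and from 4.51 to 846, and Ldb3, a PDZ protein of the Z disc, from 11.2 to 185. Myotilin (Myot) ranged from 0 to 87.7, Myoz1, a calcineurin-binding Z disc protein, from 2.49 to 80.6, the titin cap Tcap from 0 to 181 and the actin-binding Xirp2 from 0 to 380. Myot had no read in 6 tumours.

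Calcium handling was led by Atp2a1, the fast calcium pump SERCA1 (ENSMUSG00000030730, chromosome 7, 126445858 to 126463108). It was at 181, 3.82 and 310 in F0, 841, 17.3 and 19.9 in N2.1, 298, 936 and 57.5 in Balb/c-2 and 11.73, 0 and 24.9 in CBA. F0 B and CBA B were its lowest tumours. In the annotation Atp2a1 shares 763 of its 3477 exon bases with Rabep2 on the other strand (mean 1022), and no source used here says whether reads were assigned by strand. The release channel Ryr1 ranged from 8.72 to 551, its voltage sensor Cacna1s from 0 to 71.9, the calcium store protein Casq1 from 0 to 143 and the cytosolic calcium buffer Pvalb of fast fibres from 0 to 95.9.

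In energy metabolism, 4 of 6 genes followed the pattern of the filaments. The muscle creatine kinase Ckm (ENSMUSG00000030399, chromosome 7, 19404776 to 19422841), chosen after its values were seen, was at 112, 3.82 and 150 in F0 and 588, 1.02 and 4.52 in N2.1. It was at 371, 421 and 41.2 in Balb/c-2 and 0.902, 1.19 and 0 in CBA. With 2 reads in CBA in all, its ratio of Balb/c-2 to CBA was 379 with an exact 95% counting interval of 105 to 3133. The mitochondrial creatine kinase Ckmt2 ranged from 0 to 24.6, the oxygen store myoglobin (Mb) from 0 to 115 and the glycogen phosphorylase Pygm from 6.32 to 265. Mb shares 64 exon bases with Apol6 on the other strand (mean 3832).

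Eno3, the muscle enolase (ENSMUSG00000060600, chromosome 11, 70657202 to 70662513), was the most abundant member of this role and did not follow it. It was at 1285, 1180 and 1168 in F0, 1415, 1063 and 1053 in N2.1, 2558, 1772 and 3800 in Balb/c-2 and 1188, 3785 and 1269 in CBA. The 3 Balb/c-2 tumours all exceeded the F0 and N2.1 tumours. Cox6a2, the muscle subunit of cytochrome oxidase, was between 18.1 and 174 in 11 tumours and at 771 in CBA B. Trim63 (MuRF1, ENSMUSG00000028834, chromosome 4, 134315120 to 134329629), the ubiquitin ligase of muscle protein breakdown, was low throughout. It was at 2.22, 0.954 and 7.71 in F0, 20.8, 1.02 and 1.81 in N2.1, 29.8, 30.8 and 0 in Balb/c-2 and 0, 0 and 1.25 in CBA, so it was highest where most members were highest.

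The spread within passages was wide. The residual SD within groups had a median of 2.25 (log2) over the 33 genes and 0.513 over the 17491 genes tested. It exceeded 2 in 18 of 33 members and in 1.69% of all genes, and the lowest member was Tpm2 at 0.474. The highest minus the lowest tumour of a group had a median over members of 3.96 in F0, 5.38 in N2.1, 3.42 in Balb/c-2 and 1.89 in CBA. Over all genes these medians were 0.621, 0.636, 1.16 and 0.799. Groups explained a median of 46.9% of the variance of a member and 41.4% of that of any gene tested.

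**Figure D2:**
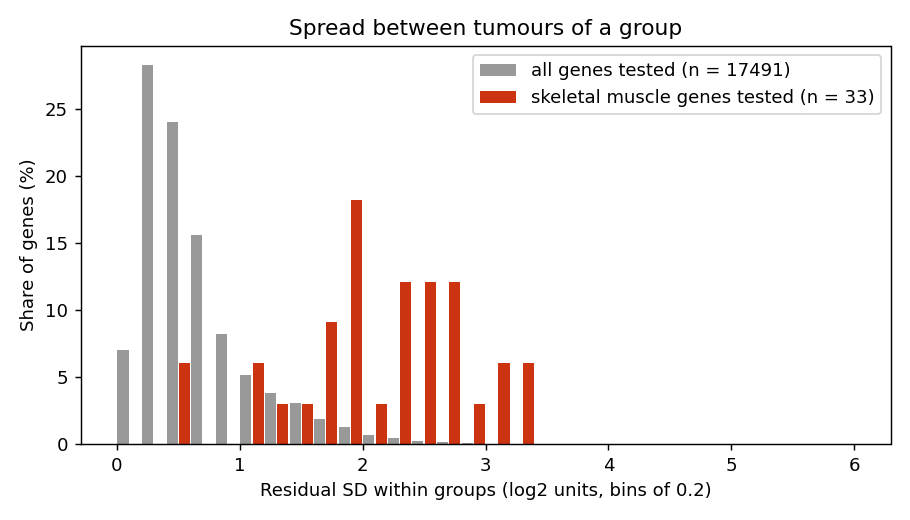
Share of genes (vertical axis, %) by residual SD of log2 values within groups (horizontal axis, bins of 0.2), for all 17491 genes tested (grey) and the 33 skeletal muscle genes tested (red). The members have a median of 2.25 and all genes a median of 0.513.

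F0 B lay below the other F0 tumours, and N2.1 A above the other N2.1 tumours, for nearly every member. All 33 were higher in F0 A than in F0 B, with a median log2 difference of 2.56 (all genes -0.08), and 32 of 33 were lower in F0 B than in F0 C. All 33 were higher in N2.1 A than in N2.1 B (median 5.38), 28 of them by more than 4-fold, against 5.77% of all genes, and 32 were higher in N2.1 A than in N2.1 C. Between N2.1 B and C no member differed by more than 4-fold, against 2.8% of all genes. These folds are on the log2(value + 1) scale, which understates differences near 0 reads. In N2.1 B and in N2.1 C, 8 members had no read, and Ckm was at 1.02 and 4.52. Within Balb/c-2, 29 of 33 were higher in B than in C (median 3.42) and 27 were higher in B than in A. The CBA tumours, all low, had median differences of 0, with 9, 14 and 12 members without a read in A, B and C. More than 4-fold differences were seen for 8 members in A against B, against 9.51% of all genes. They were seen for 3 in A against C (2.54%) and for 10 in B against C (9.99%). Members without reads in both tumours count as equal, so the medians of 0 do not show that the CBA tumours were alike.

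Passages were then compared with limma on log2(value + 1), 2-sided, adjusted by Benjamini-Hochberg over all 17491 genes and called under 0.05. No skeletal muscle gene passed in any of the 6 pairwise comparisons. The F test over the 4 groups called 1 member of 33, Myl1 (adjusted p = 0.0491), against 10.7% of all genes. That call is close to the threshold and was not made with a pseudocount of 5, without the filter, after quantile normalisation, by edgeR, with the replicate block or with the flow cell as a covariate. Without N2.1 A the F test called 11 members (6.05% of all genes) and without CBA B 2 (11.3%). Without F0 B it called 1 (7.18%), without Balb/c-2 C 1 (11.8%), and without any other tumour 0 (5.45% to 18.6%). In the pairwise comparisons, leaving out F0 B or CBA B gave at most 1 call, against 0.783% to 9.5% of all genes. Leaving out N2.1 A gave the calls given with each comparison. Leaving out any other tumour gave none, against 0.302% to 12.1% of all genes. edgeR called 0 members in all of these comparisons, against 0.577% to 9.55% of all genes. DESeq2 called 8 members over the 4 groups, against 25.1% of all genes.

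The 3 CBA tumours were low together, at levels close to those of N2.1 B and C. Against Balb/c-2 the median log2 difference of the 33 genes was -3.98 (all genes -0.03), 32 of 33 were lower and the smallest adjusted p in limma was 0.0587, for Myl1. limma called 0 members, against 1.04% of all genes, and 26 had an unadjusted p under 0.05, as had 11.8% of all genes. edgeR also called 0, and DESeq2 called 19 (5.95% of all genes). Without N2.1 A, which enters the shared estimate of spread, limma called 5 (0.814%). For 23 of 33 members every CBA tumour was below every Balb/c-2 tumour, against 12.7% of all genes in either direction. On the second flow cell alone, with Balb/c-2 B and C, the same count was 23, against 21.3% of all genes. The 10 that overlapped were Neb, Tpm2, Ldb3, Myot, Cacna1s, Casq1, Pvalb, Cox6a2, Eno3 and Trim63. Myh4 went from 545 ± 478 in Balb/c-2 to 0.301 ± 0.521 in CBA (SD, n = 3) and Des from 2281 ± 1380 to 72.3 ± 31.7, each with an adjusted p of 0.129 in limma.

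Against F0, CBA had a median log2 difference of -2.79, with 31 of 33 lower. limma called 0 members (5.04% of all genes; smallest adjusted p 0.0760, for Myh1), 12 had an unadjusted p under 0.05, and edgeR called 0 and DESeq2 10 (10.3%). Without N2.1 A limma called 3 (3.99%), and on the 2 groups alone also 3 (4.12%). The median was -4.20 without F0 B. Tumours did not overlap for 15 members, all lower in CBA, against 29.5% of all genes, and for 30 without F0 B, against 36.6%. Against N2.1 the median was -1.83 with 30 of 33 lower. limma called 0 (7.15% of all genes), 2 had an unadjusted p under 0.05, and edgeR called 0 and DESeq2 9 (13.4%). On the 2 groups alone limma called 1 (11% of all genes). Myl1 and Myoz1 alone did not overlap, against 33.6% of all genes, and with any 1 tumour left out 3 to 8 members did not, against 38% to 51.5%. Leaving out N2.1 A moved this median to 0, so that difference rested on 1 tumour, and it was -1.03 after quantile normalisation, -3.91 in edgeR and -4.01 in DESeq2.

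The 3 earlier passages were not separated by the members. In N2.1 against F0 the median log2 difference was -1.15, with 24 of 33 lower, and limma called 0 (7.91% of all genes, 1 member with an unadjusted p under 0.05), as did edgeR and DESeq2 (15.3% of all genes). With the tumour letter as a block on these 2 groups alone, limma called 1, Tpm2, against 32.8%. Without N2.1 A the median was -3.35 and limma called 3 (2.63%). The median was -2.30 without F0 B and -0.34 to -0.47 without F0 C, N2.1 B or N2.1 C. It was -0.71 with a pseudocount of 5, -0.06 in edgeR and -0.03 in DESeq2. Tpm2 was the sole member without overlap, against 38.2% of all genes, at 6589 ± 1040 in F0 and 4086 ± 769 in N2.1 (SD, n = 3), with an adjusted p of 0.278 in limma. In Balb/c-2 against F0 the median was 1.02, with 28 of 33 higher. Leaving out Balb/c-2 A gave 0.60, and leaving out Balb/c-2 B gave 0.28. The median was 1.87 when Balb/c-2 C was left out, 0.07 when F0 B was, and 1.63 when F0 C was. limma called 0 (3.51% of all genes, 1 with an unadjusted p under 0.05), as did edgeR and DESeq2 (11% of all genes). Cox6a2 and Eno3 did not overlap, against 21.3% of all genes, and Eno3 went from 1211 ± 64.5 to 2710 ± 1022 (adjusted p = 0.174 in limma). In Balb/c-2 against N2.1 the median was 2.24, with 33 of 33 higher. It was 3.93 without N2.1 A, 1.19 to 1.47 without N2.1 B, N2.1 C or Balb/c-2 B, 1.05 in edgeR and 1.03 in DESeq2. limma called 0 (2.32% of all genes, 4 with an unadjusted p under 0.05), as did edgeR and DESeq2 (7.36% of all genes), and 1 without N2.1 A (1%). Eno3 alone did not overlap, against 20.1% of all genes. These comparisons share groups with each other.

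**Figure D3:**
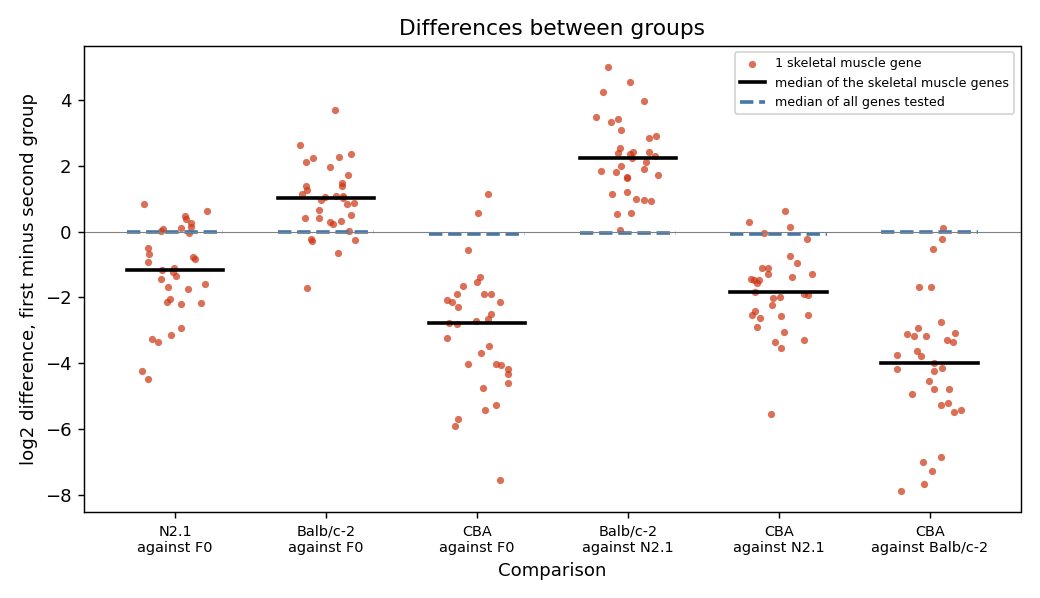
Log2 difference between group means (vertical axis, first minus second group) of each of the 33 skeletal muscle genes (red points) in 6 comparisons, with their median (black) and the median of all genes tested (blue dashes). The medians run from -3.98 in CBA against Balb/c-2 to 2.24 in Balb/c-2 against N2.1, and no pairwise difference passed the limma test.

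The mix of myosin heavy chains, which defines fibre type from slow type I (Myh7) to the fastest type IIb (Myh4), also differed between tumours. In F0, Myh4 held 10.5%, 1.89% and 12.9% of the 429, 53 and 927 reads in the 4 adult chain genes, and Myh1 held 77.6%, 54.7% and 68.3%. In Balb/c-2, Myh4 held 79.7%, 47.7% and 53.8% of 910, 2232 and 91 reads. The Wilson 95% intervals were 0.334% to 9.94% for F0 B, 10.9% to 15.3% for F0 C and 43.7% to 63.7% for Balb/c-2 C. The mean share was 60.4% ± 17.0 in Balb/c-2 and 8.44% ± 5.81 in F0 (SD, n = 3), and an exact permutation test gave a 2-sided p of 0.1, the smallest that 3 against 3 allows. This comparison was chosen after the values were seen. N2.1 A had a share of 46.0% of 1533 reads. The other N2.1 tumours had 4 reads each and CBA tumours 1 to 5, too few for a share.

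Myh2, type IIa, made up 11.4%, 43.4% and 18.8% in F0 and 0.549%, 5.87% and 11% in Balb/c-2. Myh2 itself was at 54.4, 21.9 and 168 in F0, 195, 0 and 0 in N2.1, 4.13, 122 and 8.58 in Balb/c-2 and 0 in all CBA tumours. Myh4 was at 49.9, 0.954 and 116 in F0, 667, 2.04 and 0 in N2.1, 599, 993 and 42 in Balb/c-2, and 0.902, 0 and 0 in CBA. Balb/c-2 A was thus rich in Myh4 and nearly without Myh2. Myh7 was at 2.22, 0 and 0 in F0, 15.1, 2.04 and 3.61 in N2.1, 10.7, 2.80 and 0 in Balb/c-2 and 0, 5.93 and 1.25 in CBA, and held at most 1.43% of the reads in any tumour with 50 or more. These genes are near copies of each other, and no source used here says how reads that fit several copies were assigned.

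**Figure D4:**
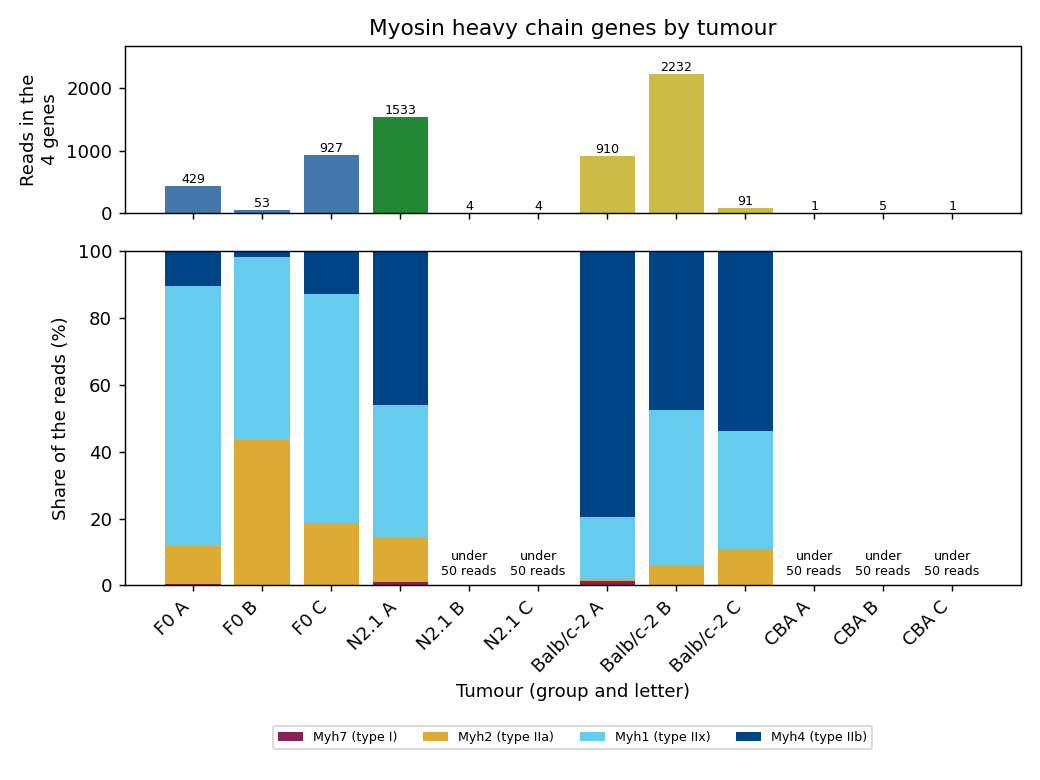
Reads in the 4 adult myosin heavy chain genes (upper panel, coloured by passage) and the share of each chain (lower panel, %) in 12 tumours, with shares drawn where a tumour had at least 50 reads. Myh4 holds 1.89% to 12.9% in F0 and 46.0% to 79.7% in N2.1 A and the Balb/c-2 tumours.

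N2.1 A and Balb/c-2 B, the pair of tumours with the highest mean member level, were also highest for 6 of 10 genes of developing and regenerating fibres (Myh3, Myh8, Actc1, Chrnd, Chrng and Musk) and for 6 of 11 myogenic regulators. The pair was chosen after its values were seen. Myh3, the embryonic myosin heavy chain, was at 115 in N2.1 A, 290 in Balb/c-2 B and no more than 15.7 elsewhere. Myh8, the perinatal chain, was at 96.5 and 153, and no more than 19.0 elsewhere. Together they held 12.7% of the reads in 6 heavy chain genes in N2.1 A and 17.5% in Balb/c-2 B. The share was 4.41% in Balb/c-2 A, 3.19% in Balb/c-2 C, and 1.15%, 5.36% and 1.28% in F0. In N2.1 B, N2.1 C and the CBA tumours it was 20% to 90%, but of only 3 to 12 reads, too few for a comparison. Among myogenic regulators, Myog, which drives terminal differentiation, was at 110 and 144 in these tumours and up to 36.4 in the others. Myod1 was at 50.2 and 75.6 and up to 4.13 elsewhere, and the fusion factor Mymk at 65.3 and 79.3 and up to 5.79. Pax7, the satellite cell factor, did not exceed 4.73 in any tumour. In CBA, Myod1, Myog and Myf6 had no read.

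Not every gene of these lists marked muscle here. Pax3 (466 to 2032), Mef2c (601 to 2958), Chrna1 (217 to 1773), Chrnb1 (142 to 799) and Ncam1 (2270 to 7728) were read in every tumour, and their order was not that of the members. Chrnb1 and Ncam1, a subunit of the acetylcholine receptor and an adhesion molecule, were lowest in N2.1 A. Ncam1 led the summed level of the developing fibre list, which was 3859 in N2.1 A and 3873 in Balb/c-2 B within a range of 3407 to 8973. None of the 5 regulators or the 8 developing fibre genes tested was called by limma in a pairwise comparison.

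**Figure D5:**
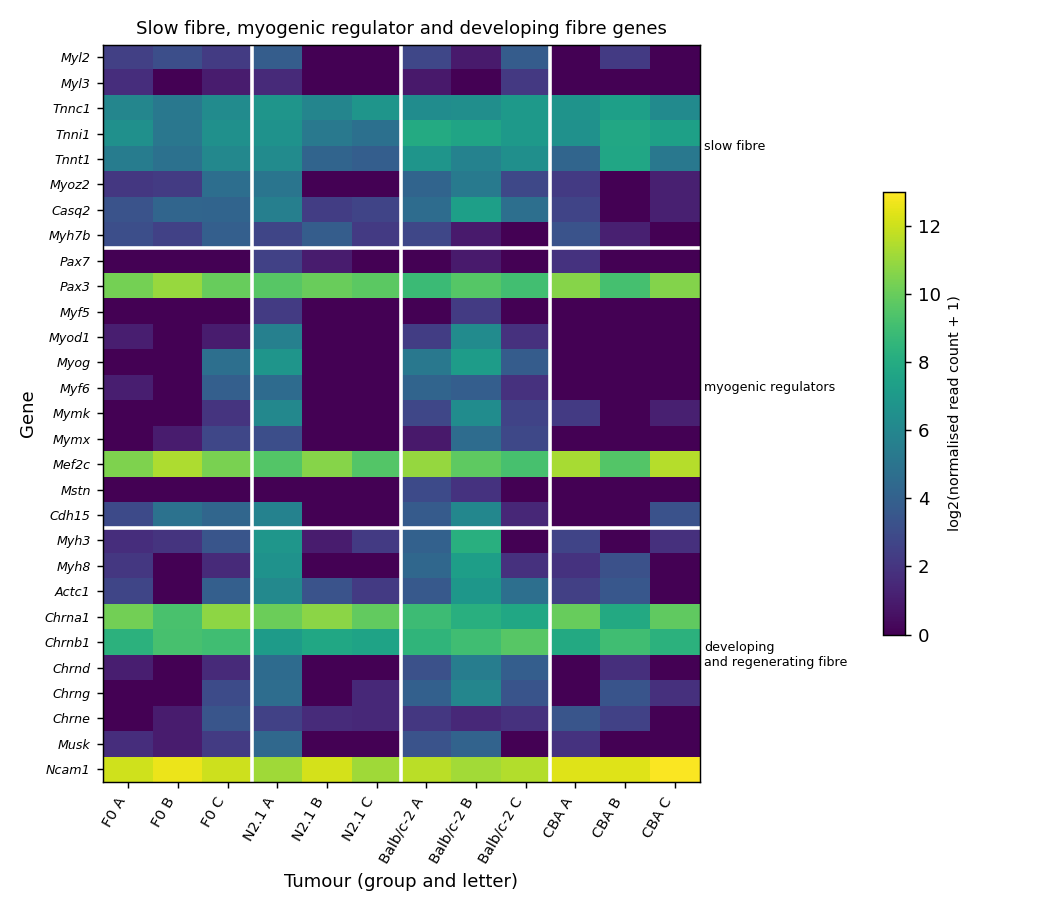
Heat map of log2(normalised read count + 1) for slow fibre, myogenic regulator and developing fibre genes (rows) in 12 tumours (columns). Myod1, Myog, Mymk, Myh3 and Myh8 are brightest in N2.1 A and Balb/c-2 B, while Pax3, Mef2c, Chrna1 and Ncam1 are bright in every tumour.

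The slow fibre list had no called gene among the 5 of 8 tested in any comparison. Its most abundant gene, the slow troponin I Tnni1, ranged from 27.1 to 247 and was at 95.6, 224 and 168 in CBA, where fast Tnni2 was at 4.51, 46.2 and 28.6. Of 19 other sarcomere genes tested, median log2 differences were -2.37 in CBA against F0 and -3.50 in CBA against Balb/c-2, and limma called none of them as lower. Trim54, the microtubule-associated ligase MuRF3, ran the other way in CBA against F0. In Balb/c-2 against F0 the list itself was higher, with a median of 0.868 and 17 of 19 genes higher. Trim54 was at 4.44, 0 and 15.4 in F0, 55.8, 4.07 and 4.52 in N2.1, 418, 108 and 126 in Balb/c-2 and 418, 51.0 and 318 in CBA. It rose in Balb/c-2 (log2 5.33 ± 1.21 SE, adjusted p = 0.0379 in limma) and in CBA (5.41 ± 1.21, adjusted p = 0.0258) against F0. Neither call was made by edgeR, with the flow cell as a covariate, on the 2 groups alone or without F0 A, F0 B, CBA A or CBA C. The adjusted p ran to 0.1495 in Balb/c-2 and, with the flow cell as a covariate, to 0.221 in CBA. The call in Balb/c-2 was also not made without N2.1 C, Balb/c-2 A or Balb/c-2 C.

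Of 12 other calcium handling genes, 1 was called, and of 10 other metabolic genes tested, 2 were, all in comparisons with CBA. Over all genes limma called 5.04% in CBA against F0, 7.15% against N2.1 and 1.04% against Balb/c-2. Jph1, which ties the sarcoplasmic reticulum to the surface membrane, had no read in CBA and fell against N2.1 (adjusted p = 0.0478 in limma) and Balb/c-2 (adjusted p = 0.0466). Cox8b, a muscle and brown fat oxidase subunit, likewise had no read in CBA, and was at 9.17 to 18.9 in N2.1 and 13.1 to 122 in Balb/c-2, with adjusted p of 0.0333 and 0.0211 in limma. Neither gene was called by edgeR, with the flow cell as a covariate or without any 1 of the CBA tumours. Pgam2, the muscle phosphoglycerate mutase, was at 111, 129 and 117 in F0, 176, 131 and 94.8 in N2.1, 155, 162 and 59.2 in Balb/c-2 and 37.0, 29.6 and 37.4 in CBA. It fell in CBA against F0 (log2 -1.75 ± 0.42 SE, adjusted p = 0.0337) and N2.1 (-1.88 ± 0.42, adjusted p = 0.0190), and was not low in the N2.1 tumours where most members were. With the flow cell as a covariate the adjusted p was 0.566 and 0.546, and neither call was made without CBA A or CBA C. The call against F0 was also not made without any 1 F0 tumour, N2.1 B or CBA B, nor that against N2.1 without N2.1 A or B. The most abundant genes of these lists, Asph (2983 to 12428) and Slc25a4 (6312 to 22228), are made in many tissues.

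Of the 9 atrophy genes, Mt1 and Gadd45a rose in N2.1 and Mt1, Mt2 and Gadd45a in CBA against F0, and none fell. Over all genes limma called 7.91% in N2.1 against F0 and 5.04% in CBA against F0. Mt1, Mt2 and Gadd45a are stress-responsive genes made by many cells. Mt1, the most abundant, was at 18709, 7511 and 15328 in F0 and 38731, 48587 and 33385 in CBA (adjusted p = 0.0445 in limma). Gadd45a in N2.1 was called in 5 of 22 alternatives and Mt1 in CBA in 8 of 21, while Gadd45a and Mt2 in CBA were lost with the flow cell as a covariate alone. Fbxo32 (atrogin-1), the classic partner of Trim63 in muscle breakdown, was between 244 and 941 and was not called.

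Of 13525 genes outside the list with a mean of at least 50, the 10 closest to the mean log2 level of the 33 members over the 12 tumours were mostly sarcomere genes. Pearson's r was 0.977 for Myom2, the M line protein of fast fibres, 0.951 for the translation factor Eef1a2, 0.95 for Pdlim3 and 0.927 for the muscle LIM protein Csrp3. It was 0.925 for Klhl41, 0.913 for Myl4, 0.903 for Myom1, 0.886 for Nrap, 0.844 for the imprinted RNA H19 and 0.808 for Ndrg2. For the members themselves r exceeded 0.9 in 23 of 33, with Ckm at 0.981, and was 0.15 for Tpm2, 0.13 for Eno3 and 0.20 for Cox6a2. All values of a tumour share its normalising factor, and a member is part of the mean it is set against, so these figures describe likeness and were not tested. H19 itself was at 1031 in N2.1 A and 1287 in Balb/c-2 B, and at 35.7 and 46.1 in N2.1 B and C.

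Markers of other tissues did not have the same order of tumours. Cardiac Myh6, Nppa and Myl7 did not exceed 11.6, whereas Nppb was at 4232 to 11753 in N2.1 and rose there against F0 (adjusted p = 0.00202 in limma), and Tnnt2 was at 765 to 1244 in CBA and rose against F0 (adjusted p = 0.0158, and 0.0822 with the flow cell as a covariate). The summed level of 12 adipocyte markers was 924 to 2602 in F0, 9575 to 28331 in N2.1, 11182 to 70867 in Balb/c-2 and 1569 to 3478 in CBA. N2.1 A and Balb/c-2 B, highest in muscle genes, had the lowest adipocyte sum of their groups, whereas in F0 the sum was highest in F0 C (2602), the highest in muscle genes, and lowest in F0 B (924), the lowest in them. The most abundant of them, Cfd, ranged from 0 to 18011. In CBA against N2.1 5 of 12 fell, among them Lpl, Car3 and Adipoq, against 7.15% of all genes called. With the flow cell as a covariate none of these 5 was called (adjusted p 0.144 to 0.804 in limma). In CBA against Balb/c-2 2 fell, against 1.04% of all genes called, and neither was called on the 2 groups alone.

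Of 12 keratinocyte markers, Krt5 and Krt14, which define the basal layer, did not exceed 6.004 and Krt1 did not exceed 2.37. Krt10 was at 55.1 to 258, Lor and Sbsn reached 115 and Dsp 61.5, and the sum of the list was 133 to 422. Dsp rose and Lor fell in N2.1 against F0, where limma called 7.91% of all genes. Lor was higher in Balb/c-2 (2.32% of all genes called) and in CBA (7.15%) than in N2.1, and limma made no other call in this list. In N2.1 against F0, Lor was called in 13 of 20 alternatives and Dsp in 16 of 20. Lor was called in 13 of 20 in Balb/c-2 against N2.1 and in 21 of 21 in CBA against N2.1. Sums of 11 smooth muscle and pericyte markers, led by Pdgfrb (2186 to 17876), were 23134 to 34756 in F0, 14829 to 18217 in N2.1, 16710 to 22946 in Balb/c-2 and 15443 to 33120 in CBA. The sums of 6 tendon markers, led by Scx, were highest in F0 C (2680) and lowest in N2.1 B (638). Endothelial markers summed to 2614 to 3505 in CBA and to 5318 or more in every other tumour. In CBA against F0 4 of 8 fell, against 5.04% of all genes called, as did 5 against N2.1 (7.15%). With the flow cell as a covariate none of these endothelial calls was made (adjusted p 0.293 to 0.472 in limma). The fibroblast, leukocyte and proliferation sums were lowest in Balb/c-2 C, CBA A and N2.1 A. The part of these tissues in the muscle gene levels was not tested.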

How the data were processed

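Polyadenylated RNA of 12 tumours was analysed from 1 table. The authors deposited normalised signal values for 34436 genes and 684965 copies of repeats, of which the genes were used. Per the submitters' processing notes, the build was mm10, and featureCounts 1.5.0-p3, StringTie 1.3.3b and HISAT2 2.0.5 were used, with no role stated. For the normaliser, strand and multimapping, nothing is stated in these sources. Dividing each deposited signal column by its smallest step gave whole reads for 100% of values (tolerance 0.1 reads). Symbols of 34364 IDs came from GENCODE M21.

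Genes at 10 or more in at least 3 tumours were tested after log2(value + 1) with limma 3.58.1 (R 4.3.3), a mean per group over all 12 tumours, a trended prior and robust moderation. edgeR 4.0.16 and DESeq2 1.42.0 on the recovered reads were alternatives, along with another pseudocount, no filter, quantile normalisation, the tumour letter as a block, the flow cell as a covariate, 2 groups alone and each tumour left out. The fits were tested on simulated data. Named were all members, with values in every tumour for the most abundant of each role, the myosin heavy chains and called members, plus called and most abundant genes of other lists (for lists of other tissues, a selection) and the 10 genes closest to the member mean. Deviations of same-letter tumours from the group means correlated at 0.203, 0.478 and 0.181 between F0 and N2.1, all positive, while in the other pairs of groups at least 1 letter did not exceed 0.1. The labels give no link between equal letters. Members and lists were chosen with earlier results of these data known. Promoters were taken from RefSeq tables, and no protein sequence or genome was used.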

Additional observations from a re-analysis of the deposited data

How the results depend on the processing

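Of 166 counts of members recomputed under alternatives, 126 stayed within 1.5 times the value reported and 40 did not. The 127 recomputed medians of members stayed within the median residual SD of members, 2.25 on the log2 scale, although some moved by over 1.5 times. That limit is wide, so staying within it does not show that the medians were stable. The median of CBA against N2.1 ran from -4.01 to 0 and that of N2.1 against F0 from -3.35 to -0.03. Of 1532 recomputed values of 73 called differences of listed genes, 395 lost the call and 0 changed direction. Counts of members called by limma moved as follows. DESeq2 called 10 members in CBA against F0, 9 in CBA against N2.1, 19 in CBA against Balb/c-2 and 8 among the 4 groups, and fits on 2 groups alone called 3 in CBA against F0 and 1 in CBA against N2.1. Among the 4 groups the count of 1 was 0 with a pseudocount of 5, without the filter, after quantile normalisation, with edgeR and with the flow cell as a covariate. With the tumour letter as a replicate block it was also 0, and 0 members were called in every pairwise comparison. A block fit on F0 and N2.1 alone, the pair whose equal letters correlated, was chosen after seeing the data and called 1 member. Each tumour was also left out in turn, and shares of all genes called are in brackets. This gave 0 to 3 calls in N2.1 against F0 (2.63% to 12.1%) and 0 to 1 in Balb/c-2 against F0 (1.29% to 4.71%). It gave 0 to 3 in CBA against F0 (2.58% to 6.71%) and 0 to 1 in Balb/c-2 against N2.1 (0.99% to 8.6%). In CBA against N2.1 it gave 0 to 1 (3.09% to 10.3%) and in CBA against Balb/c-2 0 to 5 (0.302% to 1.81%). Among the 4 groups it gave 0 to 11 (5.45% to 18.6%). The highest count of N2.1 against F0, CBA against F0, CBA against Balb/c-2 and the 4 groups came without N2.1 A. Members without overlap then numbered 23 to 29 in CBA against Balb/c-2, against 15.6% to 28.4% of all genes. On the second flow cell alone, an alternative chosen after seeing the data, they numbered 23 (21.3%). They numbered 15 to 30 in CBA against F0 (34.4% to 49.4%) and 3 to 8 in CBA against N2.1 (38% to 51.5%), against 2 with all tumours. With all tumours these shares of all genes were 12.7%, 29.5% and 33.6%, so leaving out a tumour also raised the share over all genes. The cause of these shifts was not tested. Genes under 10 in most tumours, such as Trim63, Ckmt2 and Cacna1s, rest on few reads, and a fold on the log2(value + 1) scale understates their differences.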
